A study of Mus musculus with 12 samples.

Results

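The comparison set the NCAM-positive gate of tumour fibroblasts (labelled m2cafpos) against the perivascular gate (labelled vcaf), in 6 of the 12 RNA sequencing libraries of the series. Each gate had 3 libraries, 1 from each of 3 mice numbered 27, 30 and 31, and libraries were paired by mouse. Members were chosen by the population name in the sample titles, with a title spelt 27_vacf read as vcaf of mouse 27. All 6 libraries came from mammary tumours of untreated FVB MMTV-PyMT mice aged 10 weeks. MMTV-PyMT is a transgene in which a viral promoter, active mainly in mammary epithelium, drives the polyoma middle T oncogene, so the fibroblasts themselves are not the intended site of the transgene. Both gates took live cells that stained negative for CD45, CD31, EPCAM and Ly6C and positive for PDGFRb. The m2cafpos gate added CD146-negative, PDGFRa-positive and NCAM-positive staining. The vcaf gate added CD146-positive and PDGFRa-negative staining, and the labels give no NCAM setting for it. The other gates of the series, m2cafneg (as m2cafpos, but NCAM-negative) and icaf (Ly6C-positive), appear below as side values, icaf for few genes only. With 3 mice per gate, SDs are the spread between mice. Standard errors (SE), intervals and p values come from a fit of all 12 libraries, those of the other gates included. They measure the variation left after gate and mouse, pooled over all gates.

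Cells on the outside of small vessels are called mural cells. Pericytes embed in the capillary basement membrane, and smooth muscle cells wrap arterioles and contract through an actin and myosin apparatus under control of vasoactive receptors, ion channels and Notch signalling from the endothelium. Matrix-producing tumour fibroblasts lie between vessels and epithelium, and secrete collagen fibres together with the enzymes and small proteoglycans that arrange them. NCAM, encoded by Ncam1, is an adhesion molecule of neurons that also marks some activated mesenchymal cells.

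Levels are CPM, counts per 1000000 reads assigned to genes, listed in the order of mice 27, 30 and 31, and means are given ± SD (n = 3). A difference means m2cafpos minus vcaf on the log2(CPM + 1) scale, so that a negative value stands for a higher level in vcaf, and adjusted p values are from limma. On this scale, differences of genes at or under about 1 CPM come out too small. The 6 libraries held 43898839 to 55363203 reads assigned to genes, so that a single read stood for 0.0181 to 0.0228 CPM, and 13413 to 14767 genes reached 1 CPM in a library.

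Genes of the gate antigens were read as a check of the labels, since the sort was made on their products. Ncam1, at chromosome 9, 49502136 to 49798925 (GRCm38), had 589, 564 and 604 CPM in m2cafpos and 19.7, 15.9 and 18.99 CPM in vcaf. Pdgfra had 498, 504 and 499.6 CPM in m2cafpos and 4.44, 7.26 and 8.49 CPM in vcaf. Mcam, which encodes CD146, had 3.504, 2.74 and 6.22 CPM in m2cafpos and 295, 267 and 245 CPM in vcaf. For Pdgfra and Mcam the 3 libraries of a gate lay on the side of the other gate that the labels give. For Ncam1 the m2cafpos libraries were the higher ones, and the labels set no side for vcaf. Pdgfrb, required of both gates, was present in all 6 libraries, at 839 ± 108 CPM in m2cafpos and 2104 ± 242 CPM in vcaf. Of the antigens sorted against, Ptprc (CD45) had 0.941 ± 0.405 and 4.83 ± 1.78 CPM, and Pecam1 (CD31) had 7.77 ± 4.81 and 69.4 ± 25.6 CPM. Epcam, also sorted against, was present in both gates and higher in vcaf, with values given below. Genes of Ly6C are not given here.

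Summed markers of most other cell types examined, among them epithelial, endothelial and macrophage cells, were higher in the vcaf libraries. Those of skeletal muscle overlapped between the gates, at 5.09 to 6.97 CPM in m2cafpos and 5.31 to 8.49 CPM in vcaf. The summed level of 20 epithelial and milk genes was 797 to 3560.1 CPM in m2cafpos and 9077 to 19373 CPM in vcaf, and none of the 20 was at 0 in all 6 libraries. The sum of 20 endothelial genes was 241 to 334 CPM against 1471 to 1762 CPM. The sum of 18 macrophage genes was 241 to 334 CPM against 1018 to 2149 CPM. The ranges of the gates did not overlap for the epithelial, endothelial and macrophage lists. Nor did they overlap for the adipocyte, Schwann cell, lymphocyte and red blood cell lists, all higher in vcaf. Adipocyte genes summed to 57.5 to 96.7 CPM in m2cafpos and 415 to 998 CPM in vcaf, and Schwann cell genes to 29.7 to 54.3 and 196 to 253 CPM. Lymphocyte genes summed to 3.21 to 6.3 and 16.3 to 19.04 CPM, and red blood cell genes to 24.8 to 39.6 and 75.6 to 127 CPM. The milk protein gene Csn3 had 875 ± 589 CPM in m2cafpos and 5252 ± 2138 CPM in vcaf, and Epcam had 73.7 ± 47.9 and 546 ± 171 CPM. Esam, an endothelial adhesion molecule, had 2.85, 6.896 and 12.8 CPM in m2cafpos and 551, 579 and 542 CPM in vcaf, a difference of -6.22, and so held a large part of the endothelial sum in vcaf. The other 19 endothelial genes summed to 238 to 322 CPM in m2cafpos and 920.3 to 1183 CPM in vcaf. The difference of Pecam1 was -3.13, and the endothelial sialomucin Emcn had 2.005 ± 1.22 and 45.4 ± 10.4 CPM. Cd74 of antigen-presenting cells had 74.4 ± 6.98 and 516 ± 181 CPM, and the adipocyte gene Fabp4 had 18.4 ± 10.2 and 460.5 ± 214 CPM. A fit with the log2 summed epithelial level as a covariate was therefore made for every gene, and its counts are given beside the main ones. No such fit was made for the other cell types. In bulk libraries such as these, fewer cells of a type and less RNA per cell cannot be told apart.

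**Figure D1:**
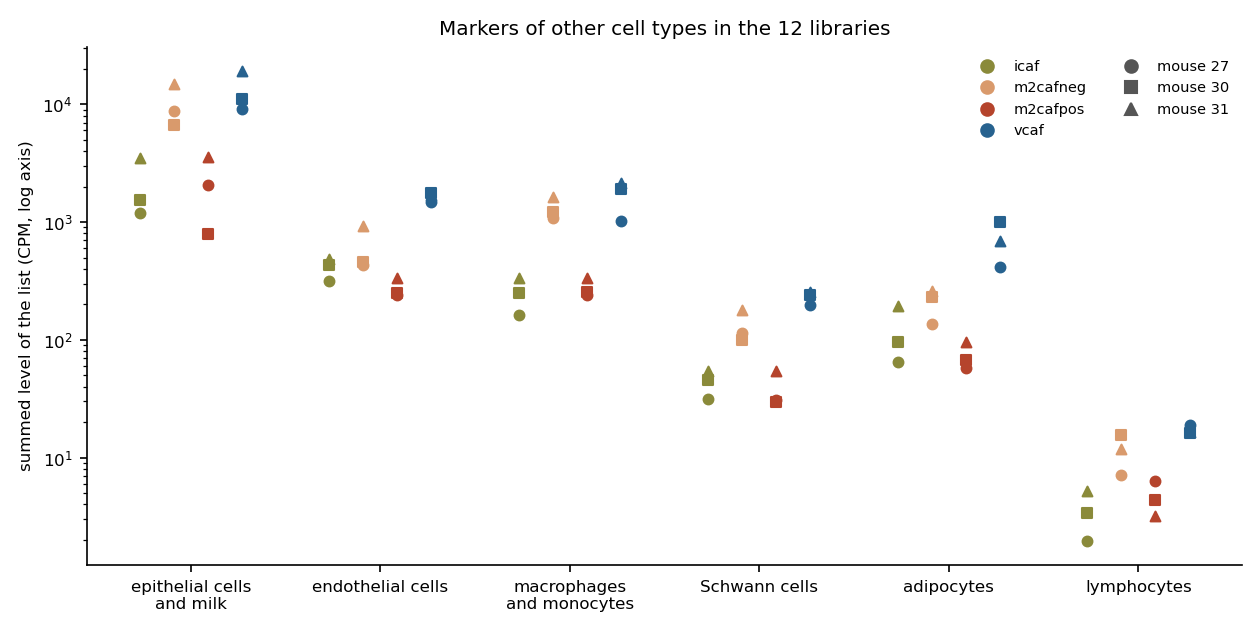
Summed CPM (log axis) of marker lists of 6 other cell types in the 12 libraries, coloured by gate, with a symbol for each mouse. In the epithelial list the vcaf libraries lie at 9077 to 19373 CPM and the m2cafpos libraries at 797 to 3560.1 CPM.

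Genes known from mural cells were among the largest differences toward vcaf, and genes of the extracellular matrix among the largest toward m2cafpos. The largest differences toward vcaf, among genes of at least 10 CPM whose libraries did not overlap, were those of Rgs5 (-10.03), Higd1b (-8.58), Gja4 (-8.18), Trarg1 (-8.06), Des (-7.95) and Olfr558 (-7.85). Serpina1b (-7.74), Cox4i2 (-7.47), Myh11 (-7.01), Vtn (-6.97), Rasl12 (-6.73) and Itga7 (-6.69) came next. Toward m2cafpos the largest were those of Mmp3 (6.48), Thbs4 (6.46), Cilp (6.38), Mfap4 (6.36) and Cpxm1 (6.11). The gate gene Pdgfra followed, and then Lrrc15 (5.96), Pi16 (5.95), C1qtnf3 (5.95), Lum (5.92), Cpz (5.92) and Itgbl1 (5.90). Trarg1 is a regulator of glucose transporter traffic. Serpina1b belongs to a family of close copies, and how reads shared between them were counted is not given in the sources used here. Across all 15456 genes tested, 10990 passed the test (71.1%), of which 2044 were higher in m2cafpos (13.2%) and 8946 were higher in vcaf (57.9%). The libraries of the gates did not overlap for 2143 genes with m2cafpos above (13.9%) and 9003 with vcaf above (58.2%). Of those called, 269 in m2cafpos and 278 in vcaf differed by at least 3 on the log2 scale, and 42 and 55 by at least 5.

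The most abundant gene was Rgs5 in vcaf and Col1a1 in m2cafpos. After Rgs5, vcaf held most of Actb, the cytoskeletal actin, at 9564 ± 669 CPM in m2cafpos and 19404 ± 1605 CPM in vcaf. Trf, the iron carrier transferrin, came next and had 2673, 1522 and 4442 CPM in m2cafpos and 11813, 15037 and 24643 CPM in vcaf. Trf was highest in mouse 31 in both gates, the mouse whose libraries also had the highest epithelial sums. The difference of Trf was -2.64 on CPM and -1.15 (adjusted p = 0.223) with the epithelial covariate. The part of epithelial cells in this difference was not tested. Beside the collagens, m2cafpos held most of Sparc, a collagen-binding protein described below, and of Bgn.

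The imbalance of these counts moved with the scaling. The median difference of all genes was -0.51 on CPM, while the 10 most abundant genes took 22.2% to 22.96% of reads in m2cafpos and 11.9% to 12.8% in vcaf. Scaling by TMM (trimmed mean of M values) moved the median by 0.47, to -0.04, and gave 7818 genes past the test (50.6%), 3754 of them higher in m2cafpos (24.3%) and 4064 higher in vcaf (26.3%). The share of called genes that were higher in m2cafpos was 18.6% on CPM and 48.0% with TMM. With the epithelial covariate 1657 genes passed the test (10.7%), 523 of them toward m2cafpos (3.38%) and 1134 toward vcaf (7.34%). The median difference of all genes in that fit was -0.53, and the median standard error 0.58 against 0.17 on CPM, so that a call can be lost where the difference itself stays. Among the lists, the median difference on CPM and with the covariate was -5.55 and -5.20 for pericyte genes, -3.39 and -3.05 for smooth muscle genes, and 2.25 and 2.92 for collagens. It was -1.81 and -1.12 for genes of vessel tone, -2.78 and -2.02 for channels, and 2.08 and 1.37 for matricellular genes. The epithelial list itself went from -2.80 to 0.01, which follows from the covariate being made of the same genes and is no check of the fit. Counts of list members below are on CPM, with the TMM and covariate counts beside them, and are to be read against these shares of all genes.

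**Figure D2:**
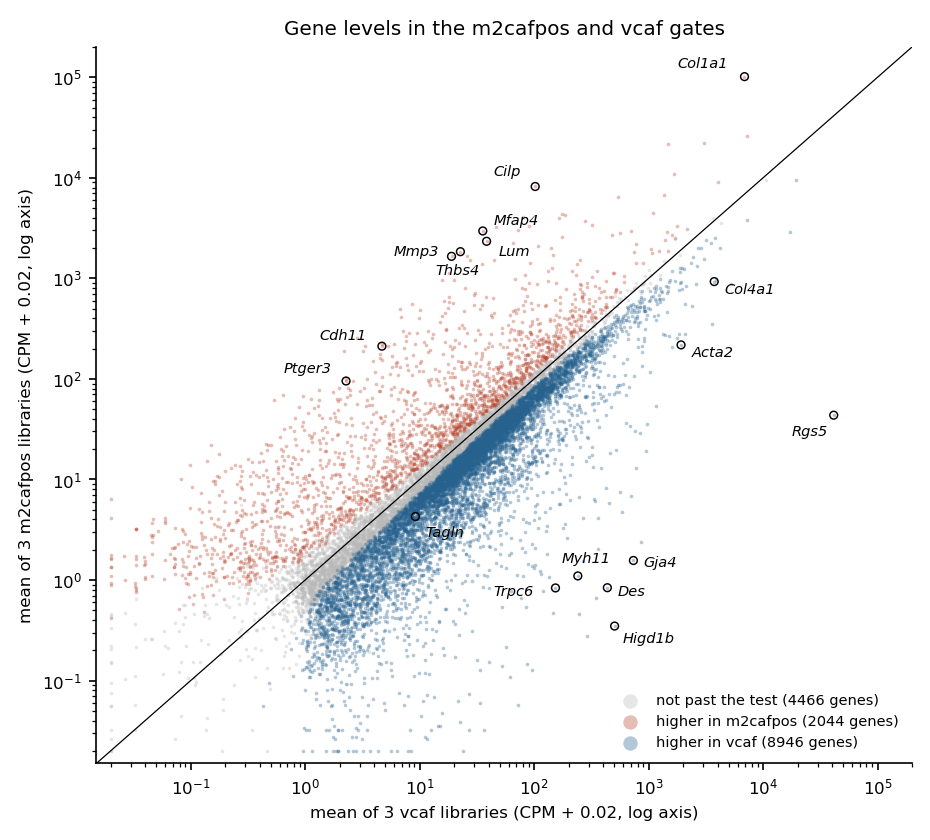
Mean CPM of the 3 m2cafpos libraries against that of the 3 vcaf libraries for 15456 genes, on log axes with 0.02 CPM added, coloured by the limma call. Rgs5, Higd1b and Des lie far below the line of equal levels and Mmp3, Cilp and Col1a1 far above it, while the blue band just under the line holds most of the 8946 genes called higher in vcaf.

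**Figure D3:**
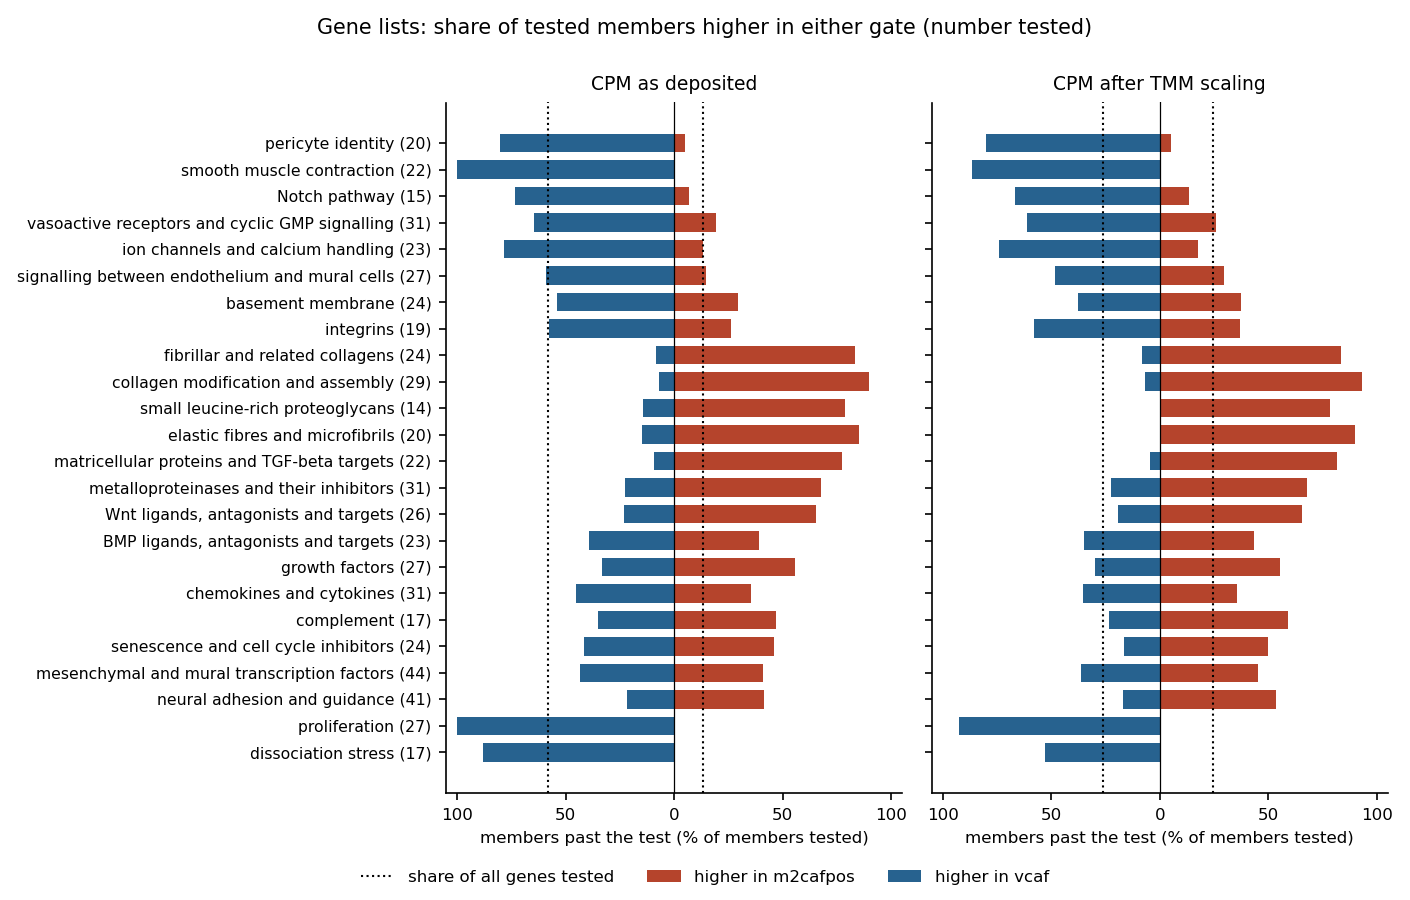
Share of the tested members of 24 gene lists that were higher in m2cafpos (right, red) or in vcaf (left, blue), on CPM and after TMM scaling, with dotted lines at the shares of all genes tested. The pericyte, smooth muscle and channel lists lean to vcaf and the collagen, proteoglycan and elastic fibre lists to m2cafpos on both scalings.

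Most pericyte genes were higher in vcaf, with a median difference of -5.55. Rgs5, a regulator of G protein signalling at chromosome 1, 169655501 to 169695813, had 16.9, 48.3 and 65.4 CPM in m2cafpos and 51485, 41639 and 31133 CPM in vcaf. It was the most abundant gene of the vcaf libraries, and its difference was -10.03 (SE 0.51, adjusted p = 1.67e-08). The channel gene Kcnj8, at chromosome 6, 142564837 to 142571614, had 16.3, 26.4 and 14.4 CPM in m2cafpos and 1178, 793 and 874 CPM in vcaf. Abcc9, which encodes the regulatory subunit of the same potassium channel, had 3.36, 10.5 and 6.51 and 812, 725 and 577 CPM. The libraries of the gates did not overlap for either subunit, and the differences were -5.59 (SE 0.31, adjusted p = 3.38e-08) and -6.60 (SE 0.30, adjusted p = 6.18e-09). Gja4, which encodes a connexin of gap junctions, had 1.54 ± 0.225 CPM in m2cafpos and 737 ± 16.3 CPM in vcaf. Vtn, the adhesive glycoprotein vitronectin, had 2.001 ± 0.9997 and 365 ± 56.7 CPM, and Higd1b, a mitochondrial protein gene, had 0.328 ± 0.289 and 505 ± 77.1 CPM. Steap4, a metalloreductase gene, had 34.97, 27.5 and 40.2 CPM in m2cafpos and 820.1, 579 and 669.6 CPM in vcaf. The mitochondrial Cox4i2, a subunit of cytochrome oxidase, and Ndufa4l2 were also higher in vcaf, by -7.47 (SE 0.25, adjusted p = 9.22e-10) and -4.72 (SE 0.23, adjusted p = 1.22e-08).

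Not every gene of the pericyte list separated the gates. Of 20 members tested, 16 were higher in vcaf, 1 was higher in m2cafpos and 3 did not pass. TMM scaling gave the same counts in each direction, and the epithelial covariate left 14 higher in vcaf. The endothelin receptor gene Ednra had 298, 221 and 281 CPM in m2cafpos and 369.9, 265 and 266 CPM in vcaf, and the gates overlapped. The Notch target Heyl had 331, 305 and 443 and 443, 314 and 257 CPM, again with overlap, and a difference of 0.11 with a 95% interval of -0.66 to 0.88. Tbx18, a transcription factor gene of mural progenitors, was low in both, at 9.67 ± 3.53 and 9.69 ± 5.17 CPM. Anpep, which encodes aminopeptidase N, was past the test toward m2cafpos at 0.27 (SE 0.11, adjusted p = 0.0444), but its libraries overlapped and the call was lost without either library of mouse 27 or 30. Cspg4, the NG2 proteoglycan gene that is widely used to mark pericytes, had 69.6, 61.3 and 73.03 CPM in m2cafpos and 322, 273 and 242 CPM in vcaf. It was thus clearly present in all 3 m2cafpos libraries, and its difference of -2.02 was well short of the list's median.

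Genes of the contractile apparatus were higher in vcaf. Myh11, the smooth muscle myosin heavy chain at chromosome 16, 14194535 to 14291372, had 0.379, 0.371 and 2.48 CPM in m2cafpos and 230.3, 271 and 222 CPM in vcaf. Acta2, smooth muscle actin and a common marker of activated fibroblasts, had 297, 165 and 192 CPM in m2cafpos and 1941, 1833 and 1988 CPM in vcaf, with a difference of -3.18 (SE 0.28, adjusted p = 1.45e-06). The groups did not overlap for either gene. The intermediate filament gene Des had 0.818 ± 0.596 and 436 ± 46.7 CPM, and Mylk, the kinase that starts contraction by phosphorylating myosin light chain, had 12.9 ± 0.826 and 384 ± 83.6 CPM. Myl9, the light chain itself, differed by -4.41 (SE 0.13, adjusted p = 3.88e-10). Cnn1 (calponin), Actg2 (enteric actin) and Casq2 (a calcium store protein) differed by -4.28, -5.42 and -5.83. Myocd, the coactivator of serum response factor that switches on smooth muscle genes, had 0, 0.148 and 0 CPM in m2cafpos and 7.05, 11.4 and 5.27 CPM in vcaf. Tropomyosins Tpm1 and Tpm2 differed less, by -1.94 and -2.34, with m2cafpos levels of 236 ± 8.11 and 49.7 ± 10.7 CPM.

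All 22 of 22 tested members of the list were higher in vcaf on CPM, with a median of -3.39, and Pln fell below the filter. With TMM scaling 19 passed, and with the epithelial covariate 17. The 3 lost with TMM were Tagln, Smtn and Cald1. Tagln (transgelin) was low in both gates, at 5.26, 2.97 and 4.56 CPM in m2cafpos and 8.29, 9.19 and 9.98 CPM in vcaf, although the other contractile genes of vcaf were abundant. Its difference was -0.97 (SE 0.22, adjusted p = 0.00185) on CPM and -0.51 (adjusted p = 0.07196) with TMM. Smtn and Cald1, which bind actin, differed by -0.39 and -0.38 on CPM, and by 0.15 and 0.16 in the opposite direction with TMM.

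**Figure D4:**
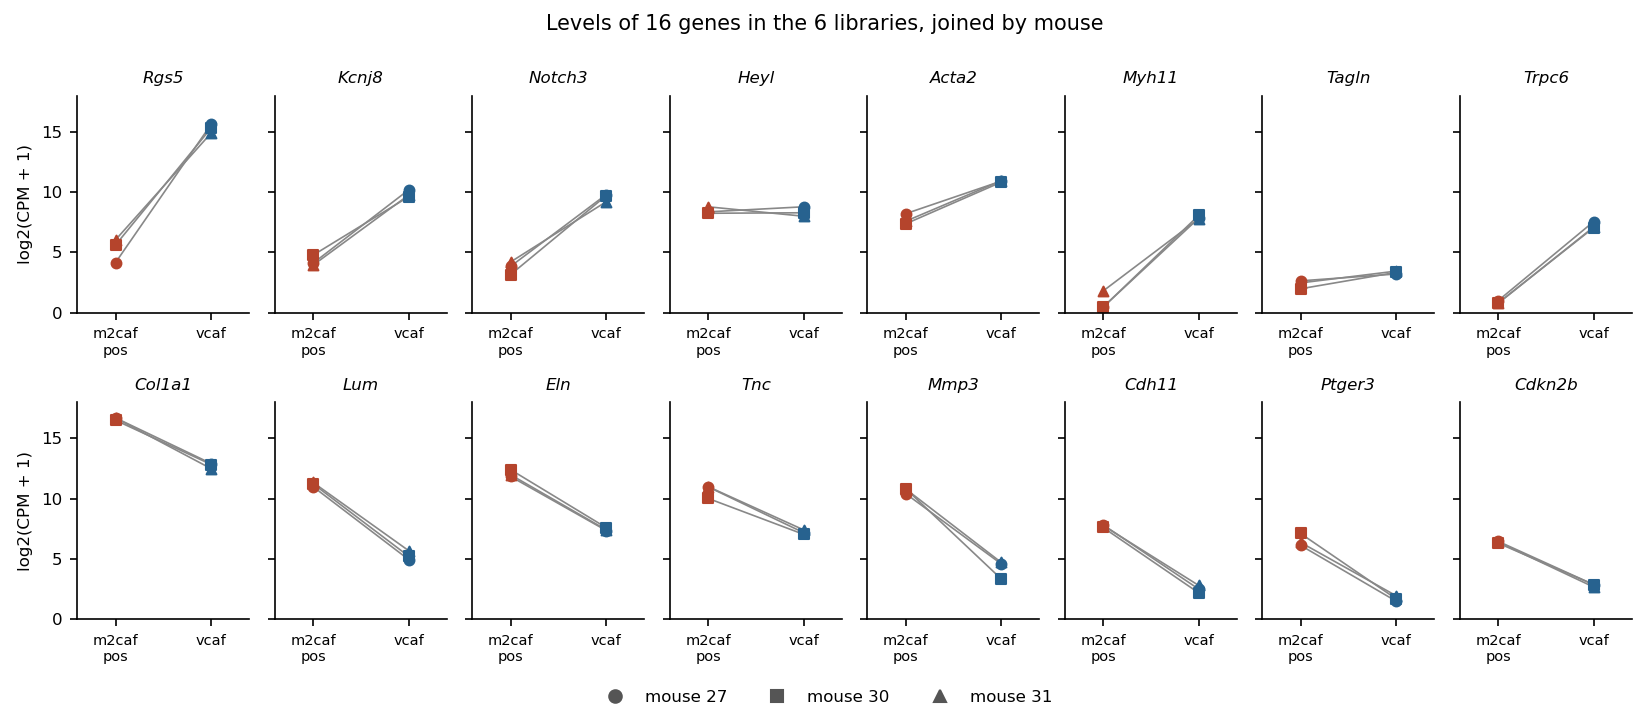
Levels of 16 genes as log2(CPM + 1) in the 3 m2cafpos (red) and 3 vcaf (blue) libraries, with lines joining the libraries of a mouse. Heyl overlaps between the gates and Tagln is low in both, while the lines of Rgs5, Myh11 and Trpc6 rise and those of Col1a1, Lum and Mmp3 fall in every mouse.

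Promoter sequence was examined for the CArG box, the binding site of serum response factor, because smooth muscle genes are known for it. RefSeq promoter windows (GRCm38.p6, 250 bases before to 50 bases after a start, both strands searched) held a CArG box in 1.63% of 32851 windows. Among smooth muscle list members, 17 of 23 matched a promoter entry, and 2 of their 19 windows held one (10.5%), those of Myl9 and Vcl. In the pericyte list 14 of 20 genes matched, and 1 of 16 windows held one (6.25%), that of the cation channel gene Trpc6. The 3 stretches are printed 5′ to 3′ on the plus strand, with the CArG box in capitals, because these are the vcaf genes of both lists that carry the motif in this window. Myl9 lies at chr2:156775278-156775337 (+), Trpc6 at chr9:8543995-8544054 (+) and Vcl at chr14:20929148-20929205 (+).
Myl9: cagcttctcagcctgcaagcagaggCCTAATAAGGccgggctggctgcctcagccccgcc
Trpc6: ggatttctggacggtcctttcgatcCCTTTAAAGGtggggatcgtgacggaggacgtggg
Vcl: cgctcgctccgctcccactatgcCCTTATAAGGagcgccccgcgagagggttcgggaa
The boxes begin at positions -161, -122 and -227 from the start site. Trpc6 had 0.993, 0.742 and 0.706 CPM in m2cafpos and 189, 133 and 139 CPM in vcaf, and Vcl (vinculin, an adhesion protein) had 28.3, 27.3 and 26.3 and 117, 81.5 and 109 CPM. Myl9 had 62.7, 49.7 and 49.2 CPM in m2cafpos and 1233, 1130.3 and 1118 CPM in vcaf. For all 3 genes every vcaf library was above every m2cafpos library. No window of the Notch or collagen lists held a CArG box.

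Receptors and enzymes of vessel tone were mostly higher in vcaf, and a smaller group was higher in m2cafpos. Gucy1a1 and Gucy1b1 encode the subunits of the soluble guanylate cyclase that senses nitric oxide. Gucy1a1 had 3.32, 9.86 and 5.97 CPM in m2cafpos and 388, 327 and 284 CPM in vcaf, and Gucy1b1 had 16.4, 19.001 and 14.6 and 343, 260.2 and 294 CPM. The gates did not overlap, and the differences were -5.59 (SE 0.26, adjusted p = 8.08e-09) and -4.08 (SE 0.15, adjusted p = 1.54e-09). The endothelin receptor Ednrb, the vasopressin receptor Avpr1a and the angiotensin receptor Agtr1a differed by -3.63, -2.49 and -2.67. Ednrb varied among m2cafpos libraries, at 5.85, 52.4 and 8.34 CPM. Olfr558, an odorant receptor gene, had 0.257 ± 0.195 CPM in m2cafpos and 288 ± 23.02 CPM in vcaf.

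The m2cafpos side held receptors for prostaglandin E2, natriuretic peptide and sphingosine phosphate. The prostaglandin receptor Ptger3 had 68.3, 136 and 81.1 CPM in m2cafpos and 1.78, 2.18 and 2.803 CPM in vcaf, with a difference of 4.83 (SE 0.28, adjusted p = 3.81e-08). Another receptor of the same lipid, Ptger4, had 24.7 ± 3.41 and 4.39 ± 0.0672 CPM. Npr2, the receptor of C-type natriuretic peptide, and S1pr2, a receptor of sphingosine phosphate, differed by 2.24 (SE 0.20, adjusted p = 1.69e-06) and 1.45 (SE 0.09, adjusted p = 1.26e-07). In all, 20 of 31 tested members were higher in vcaf, 6 were higher in m2cafpos and 5 did not pass (median -1.81). TMM scaling gave 19 and 8, and the epithelial covariate 8 and 2. Of all genes, 57.9% were higher in vcaf on CPM, not far under the share of this list, and 26.3% with TMM.

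Ion channels divided in the same way. Besides Kcnj8 and Trpc6, the calcium-activated chloride channel Ano1 had 30.6, 11.2 and 49.1 CPM in m2cafpos and 802, 702 and 779 CPM in vcaf, with a difference of -4.82 (SE 0.31, adjusted p = 1.04e-07). Cacna1g, a low-voltage calcium channel, went the other way, with 52.3, 52.2 and 51.004 CPM in m2cafpos and 0.601, 2.16 and 0.784 CPM in vcaf and a difference of 4.66 (SE 0.24, adjusted p = 1.80e-08). The pore and the accessory subunit of the large-conductance potassium channel were split between the gates. The pore gene Kcnma1 had 4.41, 3.78 and 4.05 CPM in m2cafpos and 0.0801, 0.111 and 0.196 CPM in vcaf, while the smooth muscle subunit Kcnmb1 had 0.903, 1.11 and 1.298 and 49.5, 25.3 and 34.3 CPM. Of 23 tested channel and calcium genes, 18 were higher in vcaf, 3 were higher in m2cafpos and 2 did not pass (median -2.78). The counts were 17 and 4 with TMM, and 8 and 2 with the epithelial covariate.

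In the Notch pathway the mural receptor Notch3 and the target Hey2 stood out toward vcaf. Notch3 had 13.4, 7.95 and 17.5 CPM in m2cafpos and 897, 843 and 594 CPM in vcaf, with a difference of -5.84 (SE 0.30, adjusted p = 1.61e-08). Hey2, a repressor gene that Notch switches on in arterial cells, had 0.307, 0.111 and 0.456 and 15.8, 15.2 and 10.9 CPM. Other targets moved unequally, since Hes1 and Hey1 differed by -1.27 and -2.31 and Heyl did not pass. The ligand gene Jag1 had 103, 101 and 107 CPM in m2cafpos and 333, 314 and 191 CPM in vcaf (-1.38 (SE 0.19, adjusted p = 4.30e-05)). Notch1 was also higher in vcaf (-1.54), whereas Notch2 was higher in m2cafpos by 0.43 (SE 0.18, adjusted p = 0.0436), a call lost in 7 of the 9 fits that left out a library or a mouse. Of 15 tested members, 11 were higher in vcaf and 1 in m2cafpos (median -1.38), against 10 and 2 with TMM and 3 and 0 with the epithelial covariate. The core TGGGAA of the Notch effector RBPJ, searched on both strands, was in 5 of 16 promoter windows of this list (31.2%), 6 of 16 pericyte windows (37.5%), 2 of 20 collagen windows (10%) and 25.6% of all windows. The Hey2 stretch is shown as the promoter of the Notch target with the largest difference, on the minus strand at chr10:30842960-30843015, with the core (here as its reverse complement) in capitals.
Hey2: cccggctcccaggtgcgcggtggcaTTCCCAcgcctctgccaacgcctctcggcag
The core is so short that it occurs in a large share of all windows, and the match is a description of the sequence alone.

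Genes of signals exchanged with endothelium differed in both directions, also within the platelet-derived growth factors. Pdgfa, a platelet-derived growth factor, had 18.9, 17.9 and 13.7 CPM in m2cafpos and 227, 235 and 179 CPM in vcaf, and Pdgfd of the same family had 25.5, 44.5 and 25.6 and 5.43, 4.898 and 7.23 CPM. Their differences were thus opposite on CPM, -3.59 (SE 0.21, adjusted p = 5.61e-08) and 2.23 (SE 0.21, adjusted p = 3.00e-06). With the epithelial covariate they were -4.31 (adjusted p = 0.00498) and 0.71 (adjusted p = 0.438), so that Pdgfd did not pass. The lymphatic growth factor Vegfc had 24.4, 18.5 and 18.9 CPM in m2cafpos and 2.44, 2.16 and 5.21 CPM in vcaf, and Vegfd differed by 2.56 in the same direction. Angpt2, the destabilising angiopoietin, had 78.1 ± 16.6 and 245 ± 14.7 CPM. Angpt1, which stabilises vessels, had 12.3 ± 2.18 and 10.7 ± 0.631 CPM and did not pass on CPM (difference 0.18), but was higher in m2cafpos with TMM (0.67, adjusted p = 0.00565). The hypoxia factor Epas1 was higher in vcaf by -4.07 (SE 0.24, adjusted p = 5.18e-08). Across 27 tested members, 16 were higher in vcaf and 4 in m2cafpos, or 13 and 8 with TMM and 4 and 1 with the epithelial covariate. The share higher in vcaf on CPM was thus close to that of all genes. Flt1, also an endothelial marker, had 3.297 ± 0.288 and 109 ± 21.2 CPM beside the endothelial sums given above, and their part in its difference was not tested.

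Basement membrane genes did not move as one list. The collagen IV chains that form its network were higher in vcaf, with 871, 885 and 1029.8 CPM of Col4a1 in m2cafpos and 4042, 4133 and 3058 CPM in vcaf, and a difference of -2.00 (SE 0.15, adjusted p = 4.85e-07). Col4a2 and Col18a1 differed by -1.86 (SE 0.18, adjusted p = 2.63e-06) and -2.20 (SE 0.17, adjusted p = 5.28e-07), and Nid2, which links collagen IV to laminin, by -2.01. The laminin chain genes Lama1 and Lama2 were higher in m2cafpos. Lama2 had 234, 206 and 283 CPM in m2cafpos and 80.9, 71.8 and 57.5 CPM in vcaf, and Lama1 had 42.5, 23.1 and 43.6 and 5.79, 3.88 and 4.23 CPM. Hspg2, the heparan sulfate proteoglycan perlecan, had 548, 359 and 555 and 185, 164 and 160.5 CPM, with a difference of 1.49 (SE 0.15, adjusted p = 4.88e-06). Of 24 tested members, 13 were higher in vcaf and 7 in m2cafpos (median -0.59, beside -0.51 for all genes), and TMM gave 9 in either direction. With the epithelial covariate these counts were 2 and 4.

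Integrin alpha chains, the cells' matrix receptors, differed in opposite directions. Itga11, a receptor of fibrillar collagen, had 165, 167 and 186 CPM in m2cafpos and 6.89, 9.45 and 9.88 CPM in vcaf, with a difference of 4.17 (SE 0.17, adjusted p = 2.36e-09). The laminin receptor Itga7 had 3.43, 5.15 and 5.604 and 679.7, 563 and 514 CPM, and Itga1, a receptor of collagen IV among others, had 40.3, 17.9 and 41.9 and 438, 387 and 292 CPM. For both, every vcaf library was above every m2cafpos library, and the differences were -6.69 (SE 0.29, adjusted p = 5.03e-09) and -3.52 (SE 0.33, adjusted p = 2.80e-06). The shared beta chain Itgb1 had 325 ± 7.36 and 693 ± 99.8 CPM. Of 19 tested integrin genes, 11 were higher in vcaf and 5 in m2cafpos, against 11 and 7 with TMM and 3 and 2 with the epithelial covariate. The share higher in vcaf on CPM was close to the 57.9% of all genes, which was 26.3% with TMM.

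Fibrillar collagens were higher in m2cafpos and took a large share of its reads. Genes of collagen chains took 16.04% to 17.3% of reads in m2cafpos and 1.99% to 2.59% in vcaf, and Col1a1, Col1a2 and Col3a1 alone took 14.04% to 14.9% and 0.982% to 1.24%. Col1a1, at chromosome 11, 94936224 to 94953042, had 106280, 92604 and 105520 CPM in m2cafpos and 7671, 7267 and 5708 CPM in vcaf. Col1a2 had 20872, 22878 and 22047 and 1527, 1631 and 1290.2 CPM, and Col3a1 had 19743, 24949 and 21716 and 3159, 3106 and 2825 CPM. The gates did not overlap, and the differences were 3.89 (SE 0.24, adjusted p = 8.45e-08), 3.89 (SE 0.16, adjusted p = 2.56e-09) and 2.86 (SE 0.19, adjusted p = 1.67e-07). Per kilobase of exon, the mean level of Col1a1 was 15461 CPM in m2cafpos, that of Col1a2 1765 and that of Col3a1 2255. Collagens that coat or link fibrils were higher in m2cafpos too. Col14a1 had 657 ± 82.6 CPM in m2cafpos and 18.2 ± 6.13 CPM in vcaf, Col12a1 had 880.3 ± 182 and 107 ± 24.1 CPM, and the network collagen Col8a1 had 2550.4 ± 217 and 175 ± 13.6 CPM.

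Of 24 tested collagen genes, 20 were higher in m2cafpos, 2 were higher in vcaf and 2 did not pass (median 2.25). TMM gave the same counts in each direction, and the epithelial covariate left 15 and 0. The 2 toward vcaf were Col5a3 and Col2a1. Col5a3, a minor chain of type V collagen, had 237, 275 and 320.2 CPM in m2cafpos and 778, 789.6 and 422 CPM in vcaf, while its partner Col5a2 had 2744, 2919 and 2851 and 622, 571 and 484 CPM. Chains of type V therefore differed in opposite directions on CPM, by -1.21 (SE 0.20, adjusted p = 1.78e-04) and 2.35 (SE 0.11, adjusted p = 1.15e-08). With the epithelial covariate they were -0.71 (adjusted p = 0.513) and 2.22 (adjusted p = 0.0063), so that Col5a3 did not pass. Col2a1, the cartilage collagen, was under 3 CPM in every one of the 6 libraries.

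Enzymes and chaperones that finish collagen were also mostly higher in m2cafpos. Lox, the lysyl oxidase that cross-links fibres, had 534, 665 and 507 CPM in m2cafpos and 15.7, 25.7 and 17.1 CPM in vcaf, with a difference of 4.82 (SE 0.15, adjusted p = 7.42e-10). Loxl1, its relative for elastin, had 2169.8, 1852 and 2334 and 96.7, 154 and 72.5 CPM. Plod2, which hydroxylates collagen lysines, differed by 3.08 (SE 0.21, adjusted p = 1.65e-07), and Serpinh1, the collagen chaperone, by only 1.19 (SE 0.16, adjusted p = 3.61e-05) where vcaf held 4018 ± 645 CPM of it. Of 29 tested members, 26 were higher in m2cafpos (27 with TMM, 12 with the epithelial covariate). The 2 toward vcaf were P3h2, a prolyl hydroxylase gene that acts on collagen IV among others, at 0.5895 ± 0.368 and 12.3 ± 1.298 CPM, and Colgalt2, a collagen galactosyltransferase, at 4.01 ± 1.48 and 12.9 ± 2.85 CPM.

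Small leucine-rich proteoglycans, which bind fibrils and set their width, were mostly higher in m2cafpos. Lum (lumican), at chromosome 10, 97565128 to 97572703, had 2029.8, 2397 and 2585 CPM in m2cafpos and 29.4, 35.9 and 49.9 CPM in vcaf, with a difference of 5.92 (SE 0.15, adjusted p = 1.17e-10). Dcn (decorin) had 2077, 2509 and 2180.1 and 37.9, 81.1 and 77.97 CPM, and Fmod (fibromodulin) had 282, 561 and 258 and 12.9, 20.1 and 11.9 CPM. The groups did not overlap, and mouse 30 was the highest of the m2cafpos libraries for Fmod, Ogn and Podn. Bgn (biglycan) was abundant in both, at 10862 ± 773 CPM in m2cafpos and 1682 ± 237 CPM in vcaf. Of 14 tested members, 11 were higher in m2cafpos on CPM and with TMM, and 9 with the epithelial covariate (median 2.89). The 2 called toward vcaf on CPM were lost with TMM, and 1 of them passed with the epithelial covariate.

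Elastic fibre genes gave a similar picture. Eln, which encodes elastin, had 3650, 5405 and 4034 CPM in m2cafpos and 162, 191 and 169 CPM in vcaf, with a difference of 4.63 (SE 0.18, adjusted p = 2.11e-09). Mfap4 and Mfap5, proteins of the microfibrils on which elastin is laid down, had 2961 ± 675 and 4083 ± 292 CPM in m2cafpos and 35.6 ± 10.3 and 80.004 ± 27.4 CPM in vcaf. Fbln1, a fibulin of elastic fibres and basement membranes, had 1436, 1219.9 and 1537 CPM in m2cafpos and 33.5, 29.7 and 41.3 CPM in vcaf. Its difference of 5.29 (SE 0.10, adjusted p = 3.03e-11) had one of the smallest standard errors among the matrix genes named here. Of 20 tested members, 17 were higher in m2cafpos and 3 in vcaf, or 18 and 0 with TMM and 14 and 0 with the epithelial covariate.

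Matricellular proteins, which signal from the matrix without building it, were mostly higher in m2cafpos. Thbs4, a thrombospondin of tendon and scar, had 1712, 1386 and 2429.9 CPM in m2cafpos and 9.25, 19.4 and 39.4 CPM in vcaf. Tnc (tenascin C) had 2009, 1034 and 2037 and 143, 129 and 167 CPM, and Postn (periostin) had 6348, 5682 and 7096 and 544, 617 and 455 CPM. None of the 3 overlapped between gates, and the differences were 6.46 (SE 0.29, adjusted p = 5.42e-09), 3.46 (SE 0.27, adjusted p = 5.91e-07) and 3.57 (SE 0.20, adjusted p = 4.04e-08). Cthrc1, a secreted protein of activated fibroblasts, had 488 ± 47.95 and 10.1 ± 4.68 CPM, and Thbs2, another thrombospondin, 1983 ± 146 and 141 ± 13.2 CPM. Relatives differed in direction here too, since Sparc had 27475, 27124 and 23398 CPM in m2cafpos and 7444, 7141 and 7035 CPM in vcaf, whereas its homologue Sparcl1 had 354, 262 and 429.99 and 3929, 4054 and 2750.1 CPM. Of 22 tested members, 17 were higher in m2cafpos and 2 in vcaf (TMM 18 and 1, epithelial covariate 9 and 0). Tgfb1, the growth factor after which part of the list is named, had 7.06, 5.28 and 5.49 and 8.49, 9.81 and 6.57 CPM and did not pass (-0.41 (SE 0.21, adjusted p = 0.0922)), although it passed toward vcaf without the vcaf library of mouse 31.

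Genes of matrix-degrading enzymes were mostly higher in m2cafpos. Mmp3 (stromelysin 1) had 1366, 1815 and 1787 CPM in m2cafpos and 22.9, 9.04 and 24.95 CPM in vcaf, with a difference of 6.48 (SE 0.28, adjusted p = 4.94e-09). Mmp2 (gelatinase A) had 3969, 3990.3 and 4811 and 155, 237 and 163 CPM, and the collagenase Mmp13 had 173, 179.98 and 283 and 0.981, 6.67 and 2.37 CPM. Every m2cafpos library was above every vcaf library for these 3 enzymes. Toward vcaf, the membrane enzyme Mmp15 had 9.15 ± 1.91 and 41.9 ± 3.98 CPM and the secreted protease Adamts1 233 ± 38.1 and 505 ± 46.8 CPM. The inhibitors were split, with Timp1 at 606, 420.3 and 394 CPM in m2cafpos and 72.7, 65.97 and 56.9 CPM in vcaf. Timp3, which binds to the matrix, had 392, 419 and 338 and 1233, 858 and 1365 CPM. Their differences were 2.82 (SE 0.19, adjusted p = 1.61e-07) and -1.57 (SE 0.21, adjusted p = 4.67e-05). Of 31 tested members, 21 were higher in m2cafpos and 7 in vcaf, the same counts as with TMM, and 16 and 0 with the epithelial covariate.

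Wnt pathway genes were mostly higher in m2cafpos. Sfrp2, a decoy receptor of Wnt, had 646, 607 and 536 CPM in m2cafpos and 17.8, 17.7 and 13.03 CPM in vcaf, with a difference of 5.13 (SE 0.25, adjusted p = 1.24e-08). The ligand genes Wnt2 and Wnt9a had 63.6 ± 20.7 and 112 ± 4.42 CPM in m2cafpos, and 1.99 ± 2.39 and 5.49 ± 0.742 CPM in vcaf. The vcaf values of Wnt2 were uneven, at 0.04004, 4.66 and 1.27 CPM. Wnt5b was higher in vcaf (-1.85 (SE 0.24, adjusted p = 2.91e-05)), as was Nkd1, an intracellular feedback inhibitor that Wnt induces (-1.92 (SE 0.27, adjusted p = 6.11e-05)). Of 26 tested members, 17 were higher in m2cafpos and 6 in vcaf (TMM 17 and 5, epithelial covariate 10 and 0).

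BMP pathway genes differed in both directions. Chrd (chordin), which traps BMP ligands, had 23.2, 27.2 and 26.2 CPM in m2cafpos and 1.64, 0.111 and 1.53 CPM in vcaf. Bmper, a secreted BMP-binding protein, had 46.04, 82.3 and 39.2 and 2.402, 2.1995 and 2.08 CPM. Both were higher in m2cafpos without overlap, by 3.76 (SE 0.24, adjusted p = 8.96e-08) and 4.07 (SE 0.31, adjusted p = 4.85e-07). The ligand Bmp2 had 0.542, 0.148 and 0.41003 CPM in m2cafpos and 18.8, 27.04 and 12.3 CPM in vcaf, and Bmp5 had 0.415, 1.52 and 0.41003 and 19.1, 21.7 and 14.2 CPM. Both ligands were higher in vcaf (-3.84 (SE 0.38, adjusted p = 3.63e-06) and -3.48 (SE 0.23, adjusted p = 1.40e-07)), as was Id4, of a family of genes that BMP induces (-2.37 (SE 0.22, adjusted p = 2.64e-06)). Not all antagonists were higher in m2cafpos, since Sostdc1 was higher in vcaf (-1.67), and the ligand Bmp4 was low in both, at 2.21 ± 1.06 and 1.41 ± 0.498 CPM. Of 23 tested members, 9 were higher in either direction on CPM, 10 in m2cafpos and 8 in vcaf with TMM, and 5 and 1 with the epithelial covariate.

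**Figure D5:**
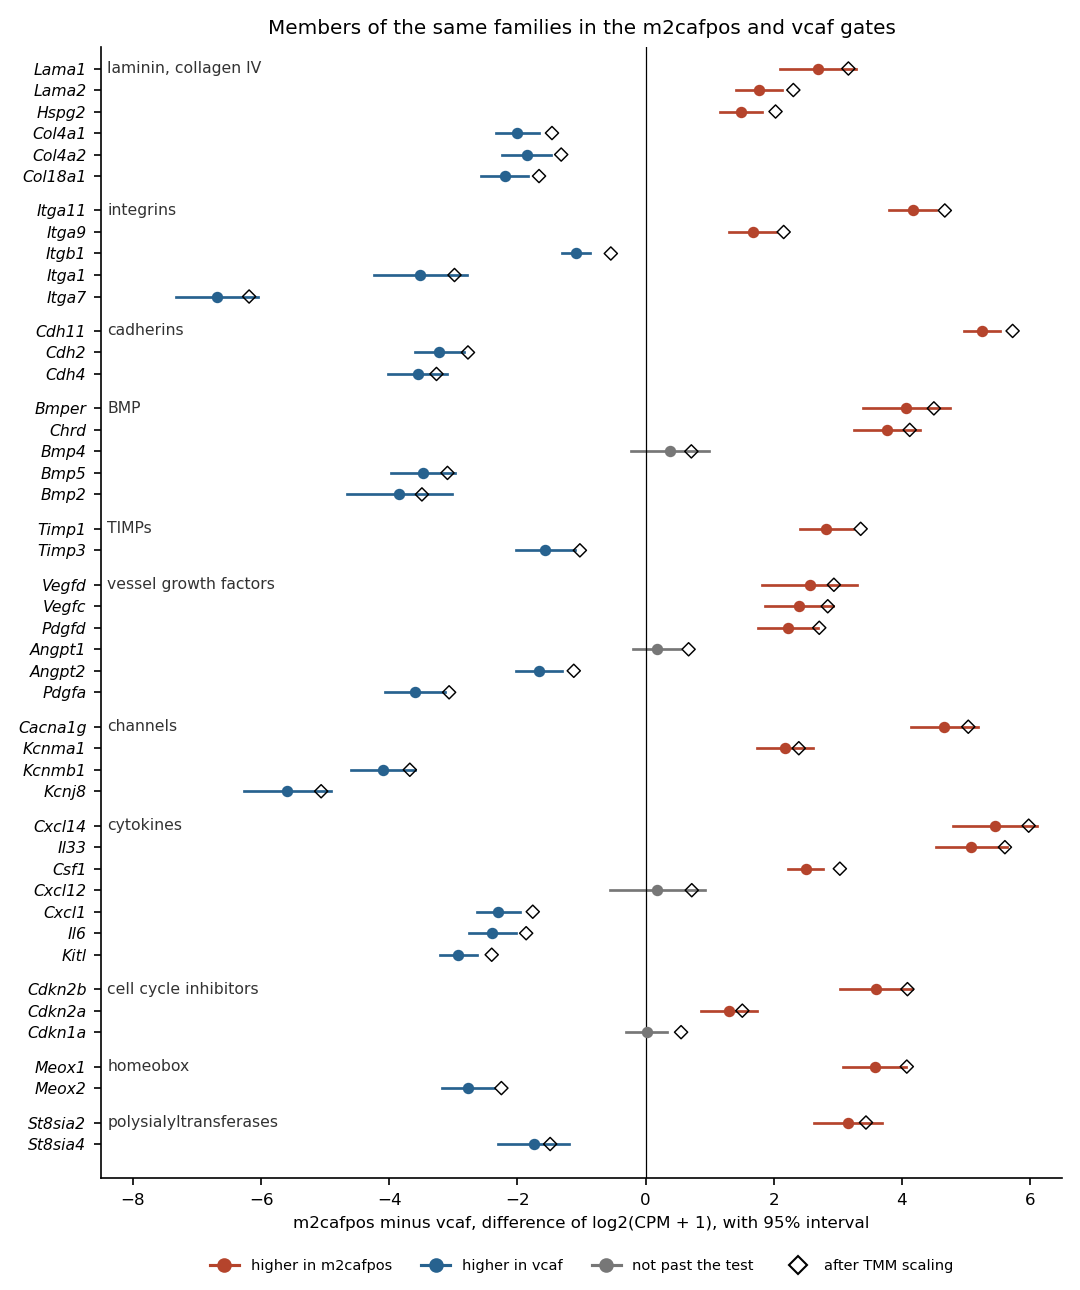
Differences of log2(CPM + 1), m2cafpos minus vcaf, with 95% intervals for members of 11 gene families, and open diamonds for the value after TMM scaling. The members drawn were chosen, some after their values were seen, so their balance of directions is not that of the whole lists. Of 23 tested channel and calcium genes, for example, 18 were higher in vcaf and 3 in m2cafpos. Among those drawn, members of most families lie on both sides of 0, as for Itga11 (4.17) and Itga7 (-6.69). Angpt1, Bmp4, Cxcl12 and Cdkn1a have intervals that include 0.

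Growth factor genes were higher in m2cafpos more often than in vcaf. Igf1, a survival factor for epithelial cells, had 369, 449 and 388 CPM in m2cafpos and 8.75, 9.9996 and 10.7 CPM in vcaf, with a difference of 5.22 (SE 0.20, adjusted p = 1.56e-09). Mdk (midkine) had 191, 250 and 224 and 4.97, 6.34 and 6.53 CPM, and Nrg1 (neuregulin 1, a ligand of ERBB receptors) had 25.7, 37.6 and 23.7 and 1.401, 0.0739 and 2.04 CPM. With the epithelial covariate the difference of Nrg1 was 1.05 (adjusted p = 0.431), against 3.89 on CPM. Hgf, the ligand of MET, had 8.92 ± 2.25 and 0.315 ± 0.265 CPM. Toward vcaf stood Hbegf, a ligand of the EGF receptor, at 20.7 ± 1.66 and 80.6 ± 11.1 CPM, and Tgfb2 at 11.5 ± 2.97 and 62.97 ± 8.06 CPM. Of 27 tested members, 15 were higher in m2cafpos and 9 in vcaf (TMM 15 and 8), and with the epithelial covariate 3 and 1.

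Chemokines and cytokines differed gene by gene. Il33, an alarmin that acts on innate lymphoid and regulatory T cells, had 782, 816 and 781 CPM in m2cafpos and 34.4, 11.2 and 28.6 CPM in vcaf, with a difference of 5.08 (SE 0.25, adjusted p = 1.40e-08). Csf1, the growth factor of macrophages, had 369.6, 368 and 381 and 73.8, 58.4 and 64.3 CPM, and the chemokine Cxcl14 had 1154, 1206 and 529.5 and 25.9, 17.8 and 16.3 CPM. These 3 were higher in m2cafpos without overlap, as were Ccl11 (eotaxin) by 1.89 and Ccl7 by 2.35. Toward vcaf, Il6 had 17.2, 25.9 and 15.9 CPM in m2cafpos and 121, 117 and 81.3 CPM in vcaf, and the neutrophil chemokine Cxcl1 had 95.4, 75.4 and 77.6 and 378, 450.2 and 402 CPM. Kitl (stem cell factor) had 17.2, 11.9 and 15.1 and 125, 114 and 113 CPM. The 3 differed by -2.39 (SE 0.17, adjusted p = 2.05e-07), -2.30 (SE 0.15, adjusted p = 1.37e-07) and -2.93 (SE 0.13, adjusted p = 6.88e-09). Cxcl12, which retains lymphocytes in stroma, had 149, 178 and 112 CPM in m2cafpos and 173, 111 and 106 CPM in vcaf, and the gates overlapped (95% interval of the difference -0.56 to 0.93). Of 31 tested members, 11 were higher in m2cafpos and 14 in vcaf, or 11 in either direction with TMM and 3 in either direction with the epithelial covariate. Macrophages also make some of the members toward vcaf, and the part of the macrophage signal given above was not tested.

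Complement genes lay on both sides. C3, the central component, had 155, 141 and 134 CPM in m2cafpos and 18.9, 33.05 and 40.9 CPM in vcaf, and C1ra and Masp1, proteases that start the cascade, differed by 1.85 (SE 0.18, adjusted p = 2.81e-06) and 4.92 (SE 0.18, adjusted p = 1.55e-09). C7, of the membrane attack complex, had 3.78, 4.41 and 1.09 CPM in m2cafpos and 66.1, 48.4 and 39.3 CPM in vcaf, and Clu (clusterin), an inhibitor of that complex, had 70.5, 29.1 and 114 and 251, 330.5 and 538 CPM. The difference of Clu was -2.50 on CPM and -0.19 (adjusted p = 0.866) with the epithelial covariate. Its levels, like the epithelial sums, were highest in mouse 31 in both gates, and the part of epithelial cells in the difference was not tested. Of 17 tested members, 8 were higher in m2cafpos and 6 in vcaf (TMM 10 and 4, epithelial covariate 2 and 2).

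The series title names senescent stroma, and inhibitors of the cell cycle that serve as its markers differed between the gates by locus. Cdkn2b, which encodes the INK4B inhibitor, had 86.7, 78.03 and 83.3 CPM in m2cafpos and 6.23, 6.23 and 5.29 CPM in vcaf, with a difference of 3.60 (SE 0.26, adjusted p = 2.64e-07) and no overlap. Its neighbour Cdkn2a (the INK4A and ARF inhibitors), at chromosome 4, 89274471 to 89294653, had 2.08, 1.95 and 1.91 and 0, 0.129 and 0.549 CPM, so that levels in m2cafpos were near 2 CPM. Cdkn1a, a target of p53, had 184, 176 and 193 CPM in m2cafpos and 210.1, 190.01 and 151 CPM in vcaf, with overlap and a difference of 0.02 (95% interval -0.30 to 0.34) on CPM, but it was higher in m2cafpos with TMM at 0.55 (adjusted p = 0.00627). Igfbp4 and Igfbp6, secreted binders of insulin-like growth factors that senescent cells are known to release, differed by 3.14 (SE 0.13, adjusted p = 4.13e-09) and 4.39 (SE 0.24, adjusted p = 2.62e-08). Lmnb1, a nuclear lamina gene that senescent cells lose, had 1.44 ± 0.214 and 5.18 ± 1.25 CPM. Glb1, the source of senescence-associated beta-galactosidase, had 173, 167 and 173 CPM in m2cafpos and 61.4, 95.2 and 94.5 CPM in vcaf. Of 24 tested members, which include genes that senescence lowers, 11 were higher in m2cafpos and 10 in vcaf (TMM 12 and 4, epithelial covariate 5 and 2). Of the members named here only Lmnb1 stood toward vcaf, and Glb1 was chosen after its values were seen. The named genes therefore do not show the balance of the list.

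Proliferation genes were higher in vcaf, all 27 of 27 tested, with 25 past the test with TMM and 11 with the epithelial covariate. Their median difference was -1.69 on CPM and -2.54 with the covariate, a fit whose median standard error over all genes was 0.58 against 0.17 on CPM. Top2a, a topoisomerase of dividing cells, had 17.4, 6.77 and 13.8 CPM in m2cafpos and 65.7, 32.6 and 62.9 CPM in vcaf, and the replication helicase gene Mcm6 had 17.8, 10.3 and 19.3 and 93.8, 55.5 and 92.02 CPM. Ccnd1, the gene of a G1 cyclin, had 13.98, 8.81 and 19.2 and 160.2, 91.8 and 141 CPM. Levels of these genes were lowest in mouse 30 within either gate, and the epithelial sum was lowest in mouse 30 in m2cafpos and in mouse 27 in vcaf. The part of epithelial or other cells in the proliferation differences was not tested. Immediate early and heat shock genes that rise on tissue digestion were higher in vcaf for 15 of 17 tested (9 with TMM, 2 with the epithelial covariate). Among them Fos had 2006 ± 202 and 4181 ± 486 CPM and Atf3 205 ± 27.6 and 816 ± 274 CPM, and the part of tissue handling in the result was not tested. This list summed to 10852 to 11943 CPM in m2cafpos and 19349 to 24435 CPM in vcaf. In m2cafneg it summed to 20560 to 29545 CPM and in icaf to 13613 to 15959 CPM.

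Transcription factor genes marked both sides. Osr1, a factor of early mesenchyme, had 178, 235 and 234 CPM in m2cafpos and 11.9, 9.297 and 12.5 CPM in vcaf, with a difference of 4.14 (SE 0.13, adjusted p = 5.79e-10). The homeobox genes Meox1 and Meox2 were opposed. Meox1 had 121, 97.2 and 109 CPM in m2cafpos and 7.69, 5.601 and 12.5 CPM in vcaf, and Meox2 had 12.6, 13.2 and 10.1 and 109.6, 92.2 and 64.8 CPM. Neither overlapped between the gates, and the differences were 3.58 (SE 0.22, adjusted p = 8.41e-08) and -2.77 (SE 0.18, adjusted p = 1.48e-07). Nr2f2, which specifies venous fate in endothelium, had 8.905, 12.3 and 10.5 and 214, 217 and 121 CPM, and Mef2c, a partner of muscle gene programmes, had 26.98, 20.97 and 33.1 and 250, 255 and 178 CPM. Ebf1 had 248 ± 23.9 and 812 ± 168 CPM, and Prrx2, a limb and fibroblast homeobox gene, 9.44 ± 2.08 and 0.654 ± 0.164 CPM. Of 44 tested members, 18 were higher in m2cafpos and 19 in vcaf (TMM 20 and 16, epithelial covariate 7 and 3).

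Because the m2cafpos gate selects a neural adhesion molecule, other genes of neural adhesion and axon guidance were examined. Cdh11, a mesenchymal cadherin, had 226, 193 and 216 CPM in m2cafpos and 4.58, 3.49 and 5.8996 CPM in vcaf, with a difference of 5.25 (SE 0.13, adjusted p = 9.90e-11). The cadherins Cdh2 and Cdh4 were higher in vcaf. Cdh2 (N-cadherin), which joins pericytes to endothelium, had 2.095, 1.74 and 1.53 CPM in m2cafpos and 29.7, 25.95 and 19.97 CPM in vcaf, and Cdh4 had 0.0722, 0.0371 and 0.0456 and 14.3, 8.84 and 11.6 CPM. Polysialic acid is attached to NCAM by the products of St8sia2 and St8sia4, and these genes were opposed. St8sia2 had 15.8, 5.01 and 14.8 CPM in m2cafpos and 0.681, 0 and 0.314 CPM in vcaf, and St8sia4 had 0.108, 0.0556 and 0.387 and 2.04, 3.16 and 3.84 CPM. The differences were 3.16 (SE 0.24, adjusted p = 5.25e-07) and -1.75 (SE 0.25, adjusted p = 7.89e-05), at low levels of both genes.

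Several guidance genes were higher in m2cafpos. Slit2, a repellent of axons, had 204, 141 and 189 CPM in m2cafpos and 4.97, 3.73 and 4.86 CPM in vcaf, and the ephrin receptor Epha3 had 61.8, 40.1 and 60.002 and 1.16, 1.22 and 1.45 CPM. Gfra1, a coreceptor of GDNF through which NCAM is known to signal, had 70.2, 60.5 and 63.7 and 4.24, 3.12 and 4.14 CPM. The differences were 5.01 (SE 0.19, adjusted p = 1.56e-09), 4.57 (SE 0.25, adjusted p = 3.24e-08) and 3.77 (SE 0.26, adjusted p = 2.13e-07), with no overlap. Of 41 tested members, 17 were higher in m2cafpos, 9 in vcaf and 15 did not pass (TMM 22 and 7, epithelial covariate 12 and 2). L1cam and Cadm1, both higher in vcaf (-2.58 and -2.24), are also made by epithelial or Schwann cells. With the epithelial covariate they differed by -0.81 and -1.34. The Schwann marker Sox10 had 101 ± 13.4 CPM in vcaf and 15.2 ± 11.1 CPM in m2cafpos, and the part of Schwann cells in these differences was not tested.

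The NCAM-negative gate m2cafneg, which differs from m2cafpos in the NCAM setting alone, was set beside both. These contrasts share libraries with the main one, so only each one's own values are given. Between the NCAM gates, 724 genes were higher in m2cafpos (4.68%) and 4404 in m2cafneg (28.5%). The contrast was fitted on CPM alone. The 10 most abundant genes took 13.5% to 15.4% of reads in m2cafneg, against 22.2% to 22.96% in m2cafpos. How far scaling moves these counts and the differences below was not tested. Mural genes were far below vcaf in m2cafneg as well. Myh11 had 3.88 ± 5.202 CPM in m2cafneg, Kcnj8 21.6 ± 8.26 CPM and Trpc6 0.748 ± 0.502 CPM. The differences of m2cafpos minus m2cafneg were -0.78 (SE 0.45, adjusted p = 0.208), -0.15 (SE 0.31, adjusted p = 0.753) and 0.09 (SE 0.23, adjusted p = 0.793), none past the test. Other mural genes did differ between the NCAM gates. Vtn was higher in m2cafneg than in m2cafpos, at 28.6 ± 10.7 CPM and a difference of -3.28 (SE 0.26, adjusted p = 1.80e-05). Steap4 (-2.30), Ano1 (-2.37), Gja4 (-1.63) and Des (-1.46) also passed the test toward m2cafneg. Tagln (1.43), Tpm2 (0.97) and Myl9 (0.48) passed it toward m2cafpos. The matrix genes Mmp3, Mmp2, Lum and Fbln1 had 1759.6 ± 181, 4160 ± 1104, 2669.9 ± 166 and 1465 ± 148 CPM in m2cafneg, and none passed the test between the NCAM gates. Col3a1 (0.43) and Loxl1 (0.08) did not pass either. Other matrix genes passed toward m2cafpos, among them Col1a1 (1.07), Col1a2 (1.01), Eln (1.57), Bgn (1.07), Lox (0.93) and Postn (0.83). A further group, with larger differences, was higher in m2cafpos than in m2cafneg as well as than in vcaf. C1qtnf3, a secreted C1q-like protein, had 119.8 ± 12.6 CPM in m2cafneg beside 1531 ± 305 in m2cafpos, a difference of 3.65 (SE 0.29, adjusted p = 1.80e-05). Tnc, Nrg1, Col8a2 and Igfbp2 differed between these gates by 2.76 (SE 0.27, adjusted p = 4.66e-05), 2.97 (SE 0.35, adjusted p = 1.13e-04), 2.75 (SE 0.26, adjusted p = 4.07e-05) and 2.37 (SE 0.23, adjusted p = 4.66e-05). Acta2 was ordered vcaf, m2cafpos, m2cafneg, with 68.96, 26.6 and 95.1 CPM in m2cafneg and a difference from m2cafpos of 1.89 (SE 0.28, adjusted p = 4.55e-04). Cspg4, above, was likewise higher in m2cafpos than in m2cafneg, by 1.23 (SE 0.25, adjusted p = 0.00309). Dcn was the reverse, with 5856 ± 3219 CPM in m2cafneg and a difference of -1.24 (SE 0.26, adjusted p = 0.00413). The epithelial sum of m2cafneg was 6639 to 14762 CPM, overlapping that of vcaf. In icaf, Col14a1 (1402 ± 112 CPM), Mfap5 (4966 ± 516 CPM) and Csf1 (705 ± 87.2 CPM) were above their m2cafpos means. Col1a1 (30943 ± 798 CPM), Fmod (16.6 ± 3.75 CPM) and Mmp13 (2.58 ± 2.78 CPM) were below theirs. Genes higher in m2cafpos than in vcaf are thus not all particular to the NCAM-positive gate. The difference between m2cafpos and icaf was not tested.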

How the data were processed

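The deposited table holds CPM, made by the authors as counts per 1000000 reads assigned to genes in each library. Named in the submitters' processing notes are bcl2fastq, DRAGEN and genome build mm10, with no versions. Not given in the sources used here are the counting tool, annotation, strand setting and kit, and so values of overlapping genes, antisense genes and close copies are less certain. Of 55774 lines, 287 repeat an identifier with equal values, which left 55487 genes. Every value was a whole number of reads within 0.001 (100% of values), and this gave the library totals. Positions are those of GENCODE M21 on GRCm38, which held 99.5% of the identifiers.

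A gene was kept where 3 or more of the 12 libraries had 1 CPM or more (15456 genes). Values of log2(CPM + 1) were fitted in R 4.3.3 by limma 3.58.1 (lmFit, contrasts.fit and eBayes with a trend, two-sided) on all 12 libraries, with population and mouse as terms and 6 residual degrees of freedom. Benjamini-Hochberg adjustment of the p-values covered every gene kept, and the threshold was 0.05. The script was tested on simulated data in which 200 of 15456 genes were changed. It recovered 82% of genes changed 2-fold and 96% of those changed 4-fold, and 5.82% of calls were false. The real comparison called 71.1% of genes, and the simulation does not cover a change that broad. Mouse numbers in the titles name the animals, and deviations from the gate means correlated across genes with r of 0.0843, 0.184 and 0.238 for the libraries of mice 27, 30 and 31, and -0.245 to 0.0746 between mice. The alternatives were 2 other scalings, 2 smaller pseudocounts, 2 filters, fits without the mouse term or on the 6 libraries alone, edgeR 4.0.16 and DESeq2 1.42.0 on the recovered reads, the epithelial covariate, and leaving out each library or mouse. The libraries are 1 per gate and mouse, and the limits of a single read cover counting error only.

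The 33 lists (768 members) and the groups compared were chosen with earlier results of these data known, and a list is described by counts with no test of its own. Genes named were the 12 with the largest difference in each direction, where the higher gate had 10 CPM or more and the libraries did not overlap, members with the smallest adjusted p of each list, the most abundant genes, and a set always named (the gate genes, Acta2, Col1a1, Cdkn2a, Cdkn2b, Cdkn1a, Il6, Cxcl12 and Tgfb1). A further 49 list members were chosen for their roles after their values were seen, and some genes named by the rule are left out here. Promoter sequences are from RefSeq on GRCm38.p6.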

Additional observations from a re-analysis of the deposited data

How the results depend on the processing

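On CPM, 2044 genes were higher in m2cafpos and 8946 in vcaf. The counts toward m2cafpos and vcaf were 3754 and 4064 with TMM, 3873 and 3930 with median-of-ratios scaling, 3681 and 3877 with edgeR on the recovered reads, 3930 and 3921 with DESeq2, and 523 and 1134 with the epithelial covariate. With no replicate block for the mouse pairing they were 1915 and 8577, and on the 6 libraries alone 1950 and 8402 with the block or 1927 and 8410 without it. Leaving out a library or a mouse gave 1771 to 1983 and 7353 to 8574. The other pseudocounts gave 2059 to 2061 and 8854 to 8901, no filter 2184 and 9364, and a filter of 5 CPM 1642 and 7365. Of 199 genes named in the text or plots, 194 kept their direction and side of the threshold with TMM and 133 with the epithelial covariate, where 63 kept their direction and lost the call. In that fit the difference of 14 of the 63 was at least as large as on CPM, that of 33 smaller but at least 50% of it, and that of 16 under 50%. Among the 16 were Pdgfd (0.71 in that fit), Tgfb2 (-0.70), Hey1 (-0.74), Nkd1 (-0.59) and Ccl7 (0.61). Smtn and Cald1 turned from higher in vcaf to 0.15 and 0.16 with TMM, 0.17 and 0.19 with median-of-ratios scaling, 0.15 and 0.14 with edgeR, and 0.17 and 0.17 with DESeq2. With the epithelial covariate Anpep turned to -0.12, Csn3 to 0.051 and Sox10 to 0.11. Csn3 is itself one of the genes summed for the covariate. The epithelial sums of the gates do not overlap, so in that fit gate and covariate are separated only through the other libraries and the spread between mice. Of 66 list counts, 11 moved by over 1.5 times with TMM, 49 with the epithelial covariate, and at most 5 in a fit that left out a library or mouse. Apart from the settings named, the cause of a change was not tested. At this depth counting error bears mainly on genes of a few reads.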
